A study of Ambystoma mexicanum with 8 samples.

Results

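*pax6*, *eya2* and *otx5* encode transcription regulators best known from the development of sense organs and the nervous system. In an axolotl limb transcriptome each was represented by a contig (an assembled stretch of transcript) bearing its name, so that 3 of 91843 contigs were examined. The 3 were selected on their values in these same 8 libraries, being in the study's list of transcripts that differ between repeatedly amputated and control limbs. The difference between the groups is therefore described here without a test. The 3 contigs were TR3056|c0_g1_i2 (*pax6*, named after the mouse protein), TR27565|c0_g1_i1 (*eya2*, human protein) and TR9857|c0_g1_i1 (*otx5*, *Xenopus* protein). The numbers after TR, c, g and i are the read cluster, component, gene and isoform of the de novo assembly, and with the 5 other contigs of the same read clusters 8 contigs were described. No genome was used for the assembly, so the contigs have no genomic position here.

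Total RNA came from the limb stumps of 8 leucistic axolotls (*Ambystoma mexicanum*) of wild-type genotype at 3 days post-amputation (dpa). In the repeatedly amputated group (n = 4 libraries, MR14, MR2, MR5 and MR6), limbs that had failed to regenerate after 5 earlier rounds of amputation were cut for the sixth time. In the control group (n = 4 libraries, Control1, Control3, Control4 and Control6), limbs with no earlier injury were cut once at the same level. The specimens of a condition were from separate animals. The repeatedly amputated animals were chosen because regeneration had failed, so the number of amputations and the failure cannot be told apart.

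PAX6 is a paired-box and homeodomain transcription factor required for the eye and for regions of the brain, spinal cord and pancreas. EYA2 belongs to the Eyes absent family, whose members are protein phosphatases and also coactivators that bind homeodomain proteins of the sine oculis family. The 2 families act together in the eye, in sensory placodes and in muscle precursors. OTX5, described in *Xenopus*, is an Otx homeodomain protein related to mammalian CRX and is expressed in photoreceptors and the pineal gland.

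Library totals were between 15596527 and 17980271 counts in repeatedly amputated limbs and between 16765785 and 18437103 in control limbs. Expression is given as CPM, counts per 1000000 counts of the library after TMM scaling (trimmed mean of M-values, which corrects for library composition). At this depth 3 counts, taken as the floor of detection, were worth 0.158 to 0.192 CPM. Over all transcripts, edgeR's quasi-likelihood test called 4 of 32757, or 0.0122%, at a Benjamini-Hochberg adjusted p (FDR) under 0.05, while 3648 had an unadjusted p under 0.05. One library, Control6, stood apart from the other controls in all 3 contigs, and values are therefore also given without it.

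*eya2* was lower in all 4 repeatedly amputated limbs than in any control limb. It had 2.31, 2.35, 4.34 and 4.38 CPM in MR14, MR2, MR5 and MR6, against 9.25, 7.51, 8.17 and 28.4 CPM in Control1, Control3, Control4 and Control6. These values rest on 36 to 74 counts in each repeatedly amputated limb and 143 to 483 in each control limb. The groups did not overlap, which also held for 1010 tested transcripts (3.08%) in the same direction. The mean was 3.34 ± 1.17 CPM in repeatedly amputated limbs and 13.3 ± 10.1 CPM in control limbs (SD, n = 4 each). The log2 fold change was −1.99. Without Control6 the other 3 control limbs averaged 8.31 ± 0.881 CPM and the log2 fold change was −1.31. Leaving out the highest control limb could not make the groups overlap. The 3 remaining control limbs were close to each other in *eya2*, unlike in *pax6* and *otx5*. *eya2* was the only contig of its read cluster.

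The contig named *pax6* was nearly undetected in repeatedly amputated limbs and varied widely among control limbs. It had 0, 0.241, 0.0629 and 0.828 CPM in MR14, MR2, MR5 and MR6, against 0, 4.20, 2.86 and 63.8 CPM in Control1, Control3, Control4 and Control6. The groups overlapped, since Control1 had no count, as did MR14. In counts, Control6 alone had 1083, the other control limbs had 0, 80 and 50, and the repeatedly amputated limbs had 0, 4, 1 and 14. The mean was 0.283 ± 0.377 CPM in repeatedly amputated limbs and 17.7 ± 30.8 CPM in control limbs, or 2.35 ± 2.15 CPM in the 3 controls other than Control6. The log2 fold change was −5.91 with all libraries and −3.00 without Control6. Control6 held 90.0% of the *pax6* CPM of the control group. These values are those of a single isoform. With the other isoform of the gene added, as described below, MR6 had 5.62 CPM, above Control4 (4.63 CPM) and Control1 (0.212 CPM).

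*otx5* had no count in any repeatedly amputated limb and few counts in most control limbs. It had 0 CPM in MR14, MR2, MR5 and MR6, against 0.370, 0.210, 1.14 and 10.7 CPM in Control1, Control3, Control4 and Control6. The control values correspond to 7, 4, 20 and 182 counts, so that Control1 and Control3 were only just above the floor. The groups did not overlap, as was also found for 1649 of the 71366 transcripts with 10 or more summed counts (2.31%). Set against the floor of 3 counts per library, *otx5* was at least 16.8-fold lower in repeatedly amputated than in control limbs, and at least 3.11-fold lower without Control6. These bounds allow for counting error in repeatedly amputated limbs only. The control means were taken as measured, and the spread between limbs is not covered. With 213 counts in all, mostly in 1 library, *otx5* was not among the 32757 transcripts that passed the filter on low counts. In whole stump tissue, fewer cells of an expressing type and less RNA per cell cannot be told apart for any of the 3 genes.

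**Figure D1:**
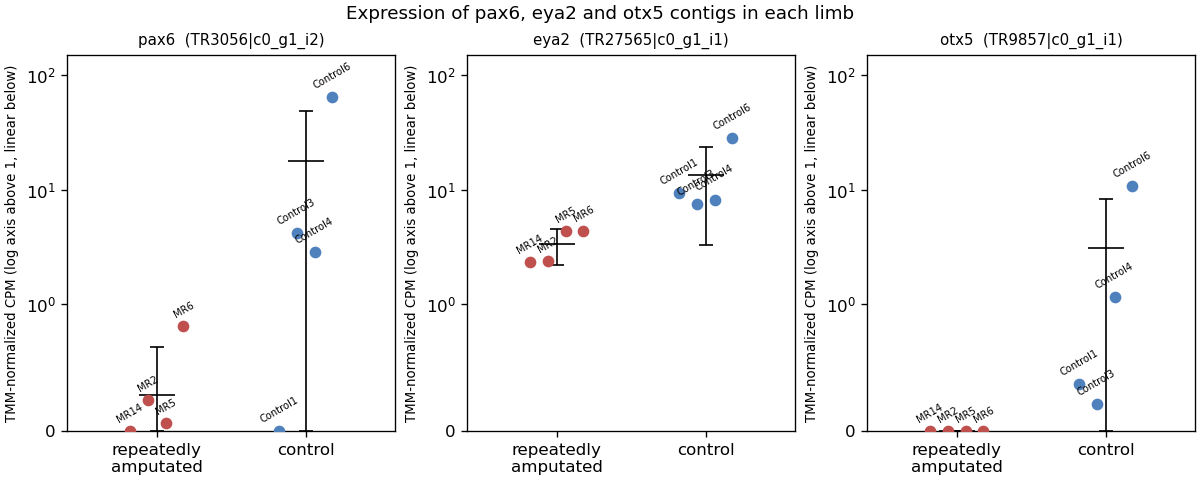
TMM-normalized CPM of the *pax6*, *eya2* and *otx5* contigs in each limb, with 4 repeatedly amputated limbs (red, left) and 4 control limbs (blue, right). Points are libraries, black marks are means ± SD with the lower end stopped at 0, and the vertical axis is linear below 1 CPM and logarithmic above. Control6 is the highest point in each panel (63.8, 28.4 and 10.7 CPM), and *eya2* alone has the other 3 control limbs close together.

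The plot of CPM by limb shows the groups apart for *eya2* and *otx5* and sharing the value 0 for *pax6*. To compare the 3 contigs with each other, levels were read as FPKM, fragments scaled to the length of the contig and to the mapped fragments of the library. In repeatedly amputated limbs *eya2* was the highest of the 3 contigs, with 0.852, 0.905, 1.508 and 1.603 FPKM in MR14, MR2, MR5 and MR6. The *pax6* contig was at 0 to 0.331 FPKM there, and *otx5* at 0. Among control limbs *eya2* was also the highest in Control1, Control3 and Control4, with 2.88 to 3.84 FPKM, against 0 to 1.71 for *pax6* and 0.226 to 1.21 for *otx5*. The order was different in Control6, where *pax6* had 25.9 FPKM, *otx5* 11.7 FPKM and *eya2* 10.8 FPKM. At that level only 2.67% of all transcripts were higher than *pax6* in Control6, 5.69% were higher than *otx5* and 6.14% were higher than *eya2*. *eya2* reached 2 FPKM, the threshold that the study's methods set for the assembly, in all 4 control limbs, whereas the *pax6* and *otx5* contigs did so only in Control6. With both *pax6* isoforms summed, *pax6* had 2.1 FPKM in MR6, above *eya2* there, and 2.72 FPKM in Control3.

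The *pax6* read cluster held 3 contigs. TR3056|c0_g1_i1, a second isoform of the same assembled gene, had 9 counts in MR14, none in MR2 and MR5 and 81 in MR6, against 4 in Control1, 49 in Control3, 31 in Control4 and 1698 in Control6. MR6, at 4.79 CPM, was above Control1, Control3 and Control4, of which the highest had 2.57 CPM, and Control6 stood at 99.97 CPM. The mean was 1.34 ± 2.32 CPM in repeatedly amputated limbs and 26.1 ± 49.2 CPM in control limbs, and 1.52 ± 1.20 CPM in the controls without Control6. It did not pass the quasi-likelihood test (log2 fold change −4.26, SE 2.12, FDR 0.516). Without Control6 its log2 fold change was −0.17, with an FDR of 0.991 by the same test. Fragments that match both isoforms are divided between them, so this test is not independent of the choice of the *pax6* contig. The third contig, TR3056|c2_g1_i1, had 20 counts in Control6 and none elsewhere.

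Because the 2 isoforms share a gene, RSEM (the authors' program for estimating counts) had to divide fragments that match both, and the split between them is uncertain. Their sum avoids this. It came to 9 counts in MR14, 4 in MR2, 1 in MR5 and 95 in MR6, against 4 in Control1, 129 in Control3, 81 in Control4 and 2781 in Control6. The mean of the sum was 1.62 ± 2.67 CPM in repeatedly amputated limbs and 43.8 ± 79.98 CPM in control limbs. Control means were thus 27.0 times those of repeatedly amputated limbs, and 2.38 times without Control6 (3.87 ± 3.35 CPM). At the level of the gene MR6 was above Control4 and Control1, and the groups overlapped. The isoform named *pax6* in the study's list made up 15.1% of the sum in MR6, against 61.8% in both Control3 and Control4 and 39.0% in Control6. In MR14, MR2, MR5 and Control1, with 1 to 9 counts in all, the share was either 0 or 100% and too thinly covered to be read.

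The *otx5* read cluster held 4 contigs, all of them in separate components. The largest after *otx5* itself, TR9857|c1_g1_i1, is in the study's list without a protein name. It had 1 count in MR5 and none in MR14, MR2 and MR6, against 4 in Control1, 1 in Control3, 13 in Control4 and 91 in Control6. It passed a minimum of 10 summed counts only through the control limbs, so no test of it is given. TR9857|c2_g1_i1 had 0, 0, 0 and 1 counts in the repeatedly amputated limbs, against 0, 0, 4 and 19 in the control limbs. TR9857|c3_g1_i1 had 0 counts in every repeatedly amputated limb and at most 3 in any control limb. In these contigs, as in *otx5*, Control6 was the highest library and Control4 the second highest, apart from TR9857|c3_g1_i1, where 1 count in Control1 came second. The 3 contigs besides *otx5* together had 0.0305 ± 0.0353 CPM in repeatedly amputated limbs and 1.99 ± 3.14 CPM in control limbs. The effective length implied by counts and FPKM was 35.0% of that of *eya2* for *otx5* and 27.4% for TR9857|c1_g1_i1, against 93.9% for *pax6*.

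**Figure D2:**
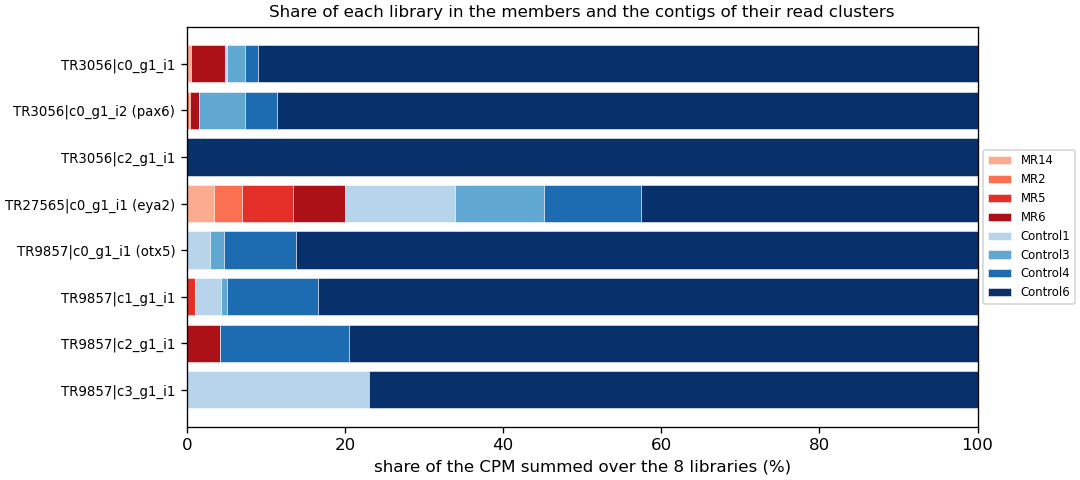
Share of each library in the CPM summed over the 8 libraries, for the 8 contigs of the *pax6*, *eya2* and *otx5* read clusters, with repeatedly amputated limbs in reds and control limbs in blues. Control6 (darkest blue) holds 88.6% of *pax6*, 86.1% of *otx5* and 42.6% of *eya2*.

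The plot of library shares shows Control6 filling most of every bar except that of *eya2*. Control6 held over 50% of the summed CPM of 18 tested transcripts (0.055%), and both *pax6* isoforms were among these 18. Among transcripts with 10 or more summed counts it did so for 234 (0.328%), *otx5* and TR9857|c1_g1_i1 included. MR5 held over 50% of 610 and Control3 of 315, and the other libraries ranged from 106 in MR2 to 222 in Control1. At a share over 80%, where *pax6* and *otx5* lie, there were 52 transcripts in Control6, 56 in Control3, 42 in Control1, 40 in MR5 and 12 to 22 in each of the other libraries. Of the named transcripts concentrated in Control6, LV603, an immunoglobulin lambda chain, had 98.0 CPM there and at most 19.1 CPM in any other library. TAOK1 had 10.7 CPM in Control6, 6.40 CPM in Control1 and 0 in the other libraries. WNT3, a secreted Wnt ligand, was low, with 1.06 CPM in Control6, where 3 counts were worth 0.177 CPM. It had at most 0.229 CPM in any other library. Contigs of 1 unnamed read cluster were the most concentrated of those in the study's list: TR29027|c0_g1_i1 had 124.9 CPM in Control6 and at most 2.38 CPM elsewhere.

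**Figure D3:**
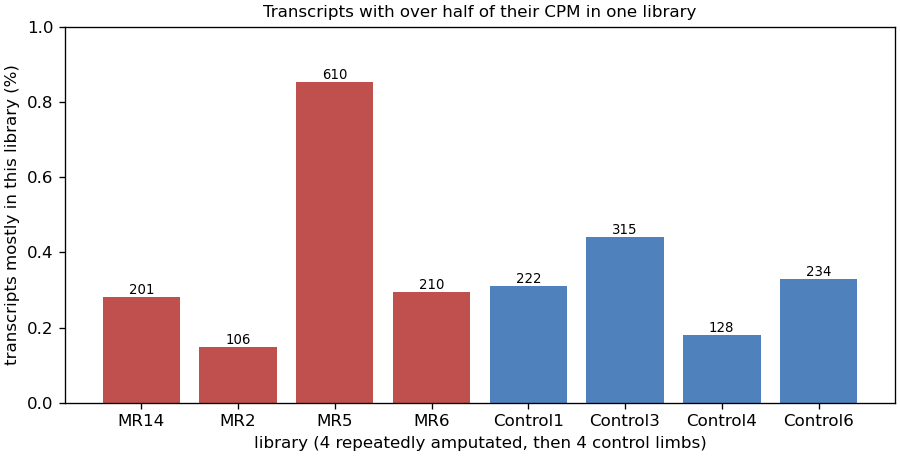
Percentage of the 71366 transcripts with 10 or more summed counts for which a single library holds over 50% of the CPM, with the number of transcripts above each bar, repeatedly amputated limbs in red and control limbs in blue. Control6 (234 transcripts) lies below MR5 (610) and Control3 (315).

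The plot of single-library transcripts shows that such concentration occurred in every library. Marker lists drawn from protein names in the study's list showed where Control6 stood for other tissues. Muscle transcripts (71 contigs) summed to between 377 and 10411 CPM in repeatedly amputated limbs and between 20.8 and 801 CPM in control limbs, with 33.7 CPM in Control6, where 37 of the 71 contigs had no count. Cartilage transcripts (11 contigs) summed to between 11.7 and 186 CPM in repeatedly amputated limbs and between 1.35 and 2.27 CPM in control limbs, with the lowest value in Control6, where 8 of the 11 had no count. Immunoglobulin transcripts (7 contigs, LV603 among them) summed to between 158 and 289 CPM in repeatedly amputated limbs and between 524 and 922 CPM in control limbs, with 697 CPM in Control6. Epidermal keratins (2 contigs) summed to between 104 and 235 CPM in repeatedly amputated limbs and between 872 and 3824 CPM in control limbs, again lowest in Control6. Skin gland transcripts (16 contigs) summed to between 33.6 and 342 CPM in repeatedly amputated limbs and between 42.8 and 698 CPM in control limbs, with 117 CPM in Control6. This list was put together by protein name, and an origin in glands was not tested. In the study's list some of its contigs, such as MUC5A, were higher in repeatedly amputated limbs and others, such as BPIB2, were lower, so the sum mixes both directions. Control6 was the only library in which all 16 had at least 1 count, with 7 to 11 at 0 in repeatedly amputated limbs and 1 to 9 in the other control limbs. Such a count can lie under the floor of 3 counts, and Control3, with the highest sum, had only 1 of the 16 at 0. In none of these 5 lists was Control6 the highest control library. The cartilage, immunoglobulin and keratin sums did not overlap between the groups, and the muscle sums overlapped only through Control4 and MR6. The study chose the members of these lists on these libraries, and their part in the levels of *pax6*, *eya2* and *otx5* was not tested. No list for eye, brain or nerve was examined.

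Within the control group all 3 genes shared their highest library. No other rank was common to all 3, although pairs of them shared some. From high to low, *pax6* ran Control6, Control3, Control4, Control1. *eya2* ran Control6, Control1, Control4, Control3, and *otx5* ran Control6, Control4, Control1, Control3. Control6 exceeded the mean of the other 3 control limbs 27.1 times for *pax6*, 18.7 times for *otx5* and 3.42 times for *eya2*. Control1, which had no count of the *pax6* contig, had the second highest *eya2* value.

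After each group's mean of log2 CPM was subtracted, the 3 contigs correlated positively over the 8 libraries. The subtraction takes out the difference between group means but not the peak in Control6, which was itself part of that difference. Control6 held 90.0%, 53.3% and 86.1% of the control CPM of *pax6*, *eya2* and *otx5*. The correlations are thus not independent of how the contigs were picked. Pearson's r was 0.641 for *pax6* and *eya2*, 0.714 for *pax6* and *otx5*, and 0.812 for *eya2* and *otx5*. Without Control6 the same values over 7 libraries were 0.0251, 0.120 and 0.0426. All pairs therefore rested on 1 library. They also share the libraries themselves, and *otx5*, being 0 in all repeatedly amputated limbs, varied only among control limbs. Many other transcripts were as close. Among the 32757 tested transcripts ordered by their r with *pax6*, *eya2* had rank 2057 and *otx5* would have had rank 1207. In the order by r with *eya2*, *otx5* would have had rank 283.

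**Figure D4:**
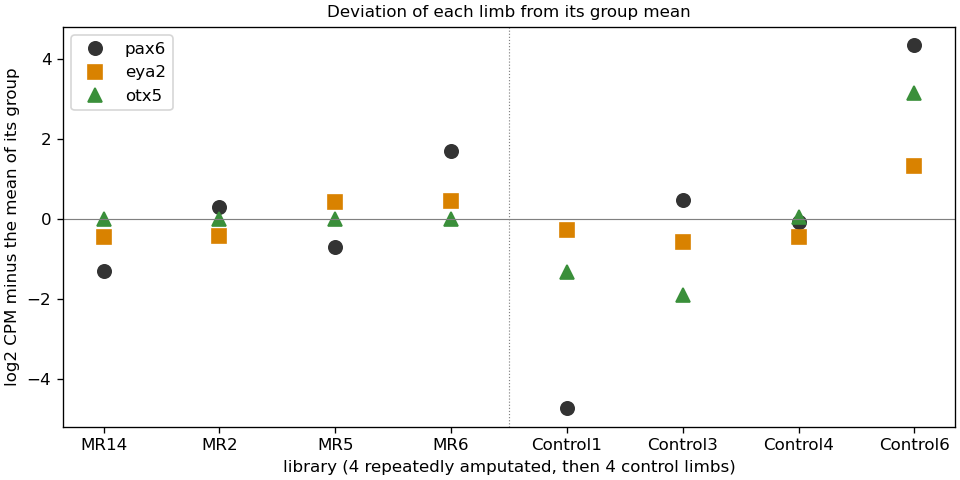
Deviation of log2 CPM (prior count 2) from the mean of its group, for *pax6* (circles), *eya2* (squares) and *otx5* (triangles), with repeatedly amputated limbs left of the dotted line and control limbs right of it. All 3 lie furthest above their group mean in Control6, at 4.35, 1.32 and 3.16, and they part from each other in Control1 and Control3.

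The plot of deviations shows *pax6* far below its group mean in Control1, at −4.75, where *eya2* was at −0.28. Among repeatedly amputated limbs, *pax6* was highest in MR6, where *eya2* was at 0.44, close to its 0.43 in MR5. The tested transcripts with the closest centred pattern were outside the study's list, from which names were taken. They were TR5600|c23_g1_i1 for *pax6* (r = 0.976), TR5688|c7_g1_i1 for *eya2* (r = 0.967) and TR22645|c12_g1_i1 for *otx5* (r = 0.993). Next came TR21683|c0_g1_i1 and TR30210|c0_g1_i1 for *pax6* (r = 0.965 and 0.964), TR27967|c1_g1_i1 and TR1010|c0_g1_i1 for *eya2* (both 0.964), and TR28354|c0_g1_i1 and TR27919|c1_g2_i1 for *otx5* (0.990 and 0.971). For each gene these r values are the 3 highest among all tested transcripts over 8 libraries, and most of these transcripts varied little. TR22645|c12_g1_i1 ran from 1.02 to 1.12 CPM in repeatedly amputated limbs and from 0.788 to 1.77 CPM in control limbs, and TR30210|c0_g1_i1 from 48.7 to 54.6 CPM in repeatedly amputated limbs and from 40.9 to 55.6 CPM in control limbs. Without Control6, r was 0.954 for TR5600|c23_g1_i1, 0.867 for TR5688|c7_g1_i1 and 0.950 for TR22645|c12_g1_i1. Transcripts with a protein name in the study's list, all chosen on these libraries, were ranked only if they passed the filter. This left *otx5* out as a partner. LV603 came first for each of the 3, with r = 0.816 for *pax6*, 0.942 for *eya2* and 0.837 for *otx5* over 8 libraries. Without Control6 these were 0.529, 0.764 and 0.107. LV603 had 4.42, 3.31, 7.36 and 8.87 CPM in MR14, MR2, MR5 and MR6, against 12.6, 18.7, 19.1 and 98.0 CPM in Control1, Control3, Control4 and Control6. DHR11, a dehydrogenase, and UBP19, a deubiquitinase, followed for *pax6* (r = 0.763 and 0.698, and 0.536 and 0.864 without Control6). BORG1, a Cdc42 effector, followed for *eya2* (0.742, and 0.235 without Control6). The r of *otx5* lay above that of UBP19 for *pax6* (0.714) and above that of BORG1 for *eya2* (0.812). For *otx5* itself, *eya2* and *pax6* followed LV603 (0.812 and 0.714, and 0.0426 and 0.120 without Control6).

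A set of 10 other transcription regulators from the study's list had higher means in repeatedly amputated limbs, as did most transcripts of that list. Regulators of the list that were lower include *pax6*, *eya2* and *otx5* themselves. The study chose all 10 with an edgeR test on these libraries, and the 10 are not all regulators in its list. Their direction, p values, calls and separation between groups were favoured by that choice and are not independent evidence. The shares over all tested transcripts, given beside them, are thus no measure of enrichment. None of the 7 that passed the filter reached an FDR of 0.05 in the quasi-likelihood test, while all 7 had an unadjusted p under 0.05, as did 11.1% of all tested transcripts. The exact test of edgeR called 5 of the 7 and 1.14% of all tested transcripts, and DESeq2 called 7 and 2.32%. Of the 7, 5 had every repeatedly amputated limb above every control limb, against 1078 of all tested transcripts (3.29%). The 3 that were too low for the filter did not overlap either. The share of such low transcripts in that direction was not computed, so nothing is read from these 3.

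Of the developmental regulators, SIX1B (TR30249|c1_g1_i1), a homeodomain protein of the family that binds EYA proteins, had 4 counts in MR14, 4 in MR2, 12 in MR5 and 1 in MR6, and none in the 4 control limbs. It was at least 1.97-fold higher against the floor, but 12 of its 21 counts were in MR5, and without MR5 it was 1.12 times the floor. PAX1 (TR21819|c21_g1_i1), another paired-box factor, known from the sclerotome, had 42, 71, 57 and 54 counts in repeatedly amputated limbs, against 22, 15, 26 and 10 in control limbs. Its mean was 3.44 ± 0.668 CPM in repeatedly amputated limbs and 1.01 ± 0.399 CPM in control limbs (log2 fold change 1.76, SE 0.311, FDR 0.225). PAX1 was lowest in Control6 among the control limbs, at 10 counts against 15 in Control3. VGLL3 (4 counts against 7 in Control4) and FOSL2 (4.95 CPM against 4.97 CPM in Control1), described below, were also lowest there. By CPM the other listed regulators were not, and SIX1B was 0 in every control limb. MEOX1 (TR29601|c0_g1_i1), a homeodomain factor of the somites, had 9, 9, 33 and 14 counts in repeatedly amputated limbs, against 2, 2, 5 and 2 in control limbs. MYOG (TR390|c0_g1_i1), myogenin, which drives muscle differentiation, averaged 9.27 ± 9.99 CPM in repeatedly amputated limbs and 0.776 ± 1.09 CPM in control limbs (log2 fold change 3.57, SE 1.25, FDR 0.365), and the groups overlapped. MYCD (TR30452|c0_g1_i1), myocardin, a coactivator in smooth and cardiac muscle, had 10, 3, 36 and 4 counts in repeatedly amputated limbs and at most 2 in any control limb, at least 5.0-fold higher, and at least 2.12-fold higher without MR5. VGLL3 (TR14056|c1_g1_i1), a cofactor of TEAD proteins, averaged 3.37 ± 2.64 CPM in repeatedly amputated limbs and 0.436 ± 0.153 CPM in control limbs (log2 fold change 2.92, FDR 0.281). SIX1B, MYOG, MYCD, VGLL3 and MEOX1 were highest in MR5, as were FOSB and FOSL2 of the inducible factors described next. MR5 was the library with the highest muscle and cartilage sums, and the part of these sums was not tested.

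The inducible factors had the same direction. FOSB (TR26671|c3_g1_i1) and FOSL2 (TR11758|c0_g2_i1), both subunits of AP-1, averaged 3.31 ± 2.38 and 17.3 ± 11.4 CPM in repeatedly amputated limbs, against 0.346 ± 0.223 and 5.38 ± 0.507 CPM in control limbs. Their log2 fold changes were 3.23 (FDR 0.285) and 1.68 (FDR 0.281), and FOSB overlapped between the groups. BCL6 (TR21814|c1_g1_i1), a transcriptional repressor known from germinal centre B cells, averaged 5.49 ± 3.31 CPM in repeatedly amputated limbs and 1.54 ± 0.521 CPM in control limbs (log2 fold change 1.82, FDR 0.286). HIF3A (TR26691|c1_g1_i1), a hypoxia-inducible factor subunit, had the lowest FDR of the 7, with 45.6 ± 9.48 CPM in repeatedly amputated limbs and 17.8 ± 3.93 CPM in control limbs (log2 fold change 1.36, SE 0.211, FDR 0.168). Control6 held between 0 and 6.43% of the CPM of these 10 transcripts summed over the 8 libraries. Their higher levels in repeatedly amputated limbs keep the share of any control library low. It is therefore not compared with the share for *pax6*, *eya2* and *otx5*, which were picked as lower in those limbs.

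**Figure D5:**
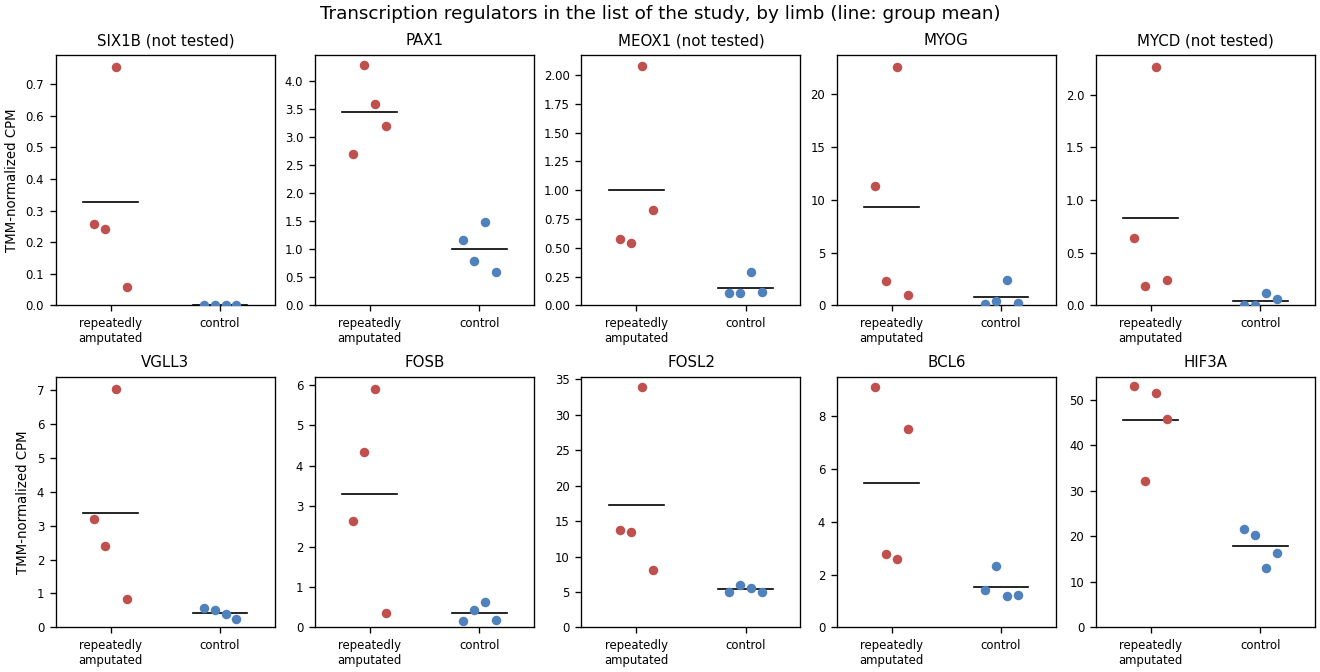
TMM-normalized CPM of 10 other transcription regulators of the study's list in each limb, with repeatedly amputated limbs (red) left of control limbs (blue) and lines at the group means (n = 4 each). Every mean is higher in repeatedly amputated limbs, and the points of MYOG and FOSB overlap between the groups.

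The plot of regulators by limb shows that a single limb, MR5, lifted several of the means. For HIF3A and PAX1 the 4 repeatedly amputated limbs lay apart from the 4 control limbs without such a limb. BCL6 also lay apart, with MR5 its lowest repeatedly amputated limb (2.58 CPM, against 2.31 CPM in Control3, the highest control).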

How the data were processed

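TruSeq v2 libraries from limb stump RNA were sequenced paired-end. The authors assembled the reads with Trinity, annotated them with Trinotate and deposited RSEM expected counts, not normalized, for 91843 transcripts in 8 libraries. The authors also deposited FPKM values, scaled between libraries by TMM. CASAVA 1.8.2 is named in the submitters' processing notes, and the study analysed its counts with edgeR at an FDR of 0.05. RSEM divides fragments shared by isoforms, so single contigs of a gene are less certain than their sum. Column names gave the group of each library but no sample, so columns were assigned to groups only, and no 2 libraries were identical.

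Expected counts were rounded, filtered with filterByExpr (32757 transcripts kept), scaled by TMM and fitted with edgeR 4.0.16 (quasi-likelihood F-test, robust, R 4.3.3), with Benjamini-Hochberg adjustment over all transcripts tested. The script was tested on simulated data. Alternatives were DESeq2 1.42.0 size factors and Wald test, upper-quartile scaling, edgeR's exact test, limma 3.58.1 (voom, and log2(FPKM + 1) for the genes' fold changes), no filter, a minimum of 10 counts over all libraries, gene-level sums, and each library left out. The fold changes from FPKM were also computed with 0.1 added in place of 1. Each SE is the size of the log2 fold change divided by the square root of its F statistic. For correlations, log2 CPM was computed with 2 as prior count. Fold changes against a group at or under 3 counts per library were computed against 3 counts, with the mean of the other group taken as measured.

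Protein names came from the study's list, by matching its group means of FPKM to the deposited ones (tolerance 1e-06), which placed 892 of 912 entries. Besides the 3 contigs, the rule for naming took the contigs of their read clusters, a list of regulators, and the 3 closest transcripts with and without a protein name. It also took up to 10 named transcripts with over 50% of their CPM in Control6, of which 3 are given. One of the closest transcripts to *eya2* is not reported here. The genes and lists were chosen with earlier results of these data known. No sequence of these contigs was used here.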

Additional observations from a re-analysis of the deposited data

Results flagged for a closer look

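In 46 sets of 4 libraries, the highest or lowest library was compared with its nearest neighbour by Dixon's ratio, and 14 passed its 95% critical value. The 46 include sets with 0 in every library, which could not pass. These were *otx5*, TR3056|c2_g1_i1 and TR9857|c3_g1_i1 in repeatedly amputated limbs and SIX1B in control limbs. Chance alone flags about 1 in 20 sets of independent, normally distributed values. The rate for these sets was not measured, since they hold related contigs and low counts, and 3 zeros beside 1 count always pass. Of the 14, 6 were control values of the *pax6*, *eya2* and *otx5* read clusters in Control6. These were *pax6* at 63.8 CPM (next highest control 4.20), TR3056|c0_g1_i1 at 99.97 CPM (next 2.57), TR3056|c2_g1_i1 at 1.18 CPM (next 0), *eya2* at 28.4 CPM (next 9.25), *otx5* at 10.7 CPM (next 1.14) and TR9857|c1_g1_i1 at 5.36 CPM (next 0.743). Contigs picked as lower in repeatedly amputated limbs are favoured to have a high control library, and the others here are related to them. These 6 flags are thus not independent of that choice. Among repeatedly amputated limbs, TR3056|c0_g1_i1 was far higher in MR6, at 4.79 CPM, than in the next limb, at 0.576 CPM. TR9857|c1_g1_i1 in MR5 (0.0629 CPM) and TR9857|c2_g1_i1 in MR6 (0.0591 CPM) stood out only because 1 count was set against 0. In Control4, MEOX1 had 0.286 CPM (next control 0.118) and MYOG had 2.40 CPM (next 0.368). In MR5 the cartilage list summed to 186 CPM (next 20.8) and the skin gland list to 342 CPM (next 65.9). In Control3 the 2 epidermal keratins summed to 3824 CPM (next 1368).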

How the results depend on the processing

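No result changed direction under any alternative. Of 32757 transcripts, 4 were called, against 21 without a filter, 9 with at least 10 summed counts, 374 by edgeR's exact test, 759 by DESeq2's Wald test and 2 by limma-voom, and between 2 (without MR5) and 14 (without Control1) with a library left out. Of the listed regulators 0 were called, against 1 (HIF3A) without a filter, 5 by the exact test and 7 by DESeq2, and 0 with any library left out. The log2 fold change of *pax6* was −1.68 on log2(FPKM + 1), which understates changes of low transcripts, and −3.12 on log2(FPKM + 0.1). With a library left out it ran from −7.31 (without MR6) to −3.00 (without Control6). That of *otx5* was −1.41 on log2(FPKM + 1) and −3.68 on log2(FPKM + 0.1), neither of which used the floor. Computed against the floor, it was −4.47 to −1.64 (without Control6) with a library left out. That of *eya2* stayed between −2.19 and −1.31 with a library left out. Centred correlations ranged from 0.0251 to 0.839 for *pax6* and *eya2*, from 0.120 to 0.917 for *pax6* and *otx5*, and from 0.0426 to 0.856 for *eya2* and *otx5*, each lowest without Control6. TR3056|c0_g1_i1 had an FDR between 0.476 and 0.991 over 14 alternatives, and DESeq2 gave it no adjusted p. No paired analysis was made, because the paper describes no pairing between the animals of the groups. Columns were not linked to single samples, and the column names of the groups share only the number 6. Depth limits *otx5* and the smaller contigs of its cluster, which were at or near 3 counts in most libraries.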
